A study of Rattus norvegicus with 56 samples.

Results

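Glycolysis was followed through 10 genes that code for enzymes of the pathway or for a regulator of it. They were Gpi, Pfkfb3, Aldoa, Tpi1, Gapdh, Pgk1, Pgam1, Eno1, Pkm and Ldha. All probe sets that the array's annotation, updated through Entrez gene IDs, assigns to these genes were taken, together with the 3 rat GAPDH control probe sets, and this gave 16 of the 15923 probe sets. Of the 16, 2 list a further symbol: a Gapdh probe set that also lists Gapdhl10, and the single Pkm probe set, which also lists the pseudogene Pkm-ps20. Values from these 2 are uncertain in that respect. Mammary gland RNA of Wistar Furth females (an inbred rat strain) was read on 56 single-colour arrays. Of 24 rats with an array each, 12 had a treatment labelled RXR and 12 were controls. RXR usually stands for the retinoid X receptor, a nuclear receptor. The agent, its dose, the rats' ages and what the control rats were given are not stated in the sources used here. In the treated arm 6 rats were labelled diestrus and 6 proestrus or estrus, and in the control arm 9 and 3. Labelled targets of the same rats were also mixed into 6 pools of 2 and 4 pools of 3 in each arm, and into 1 pool of 12 in each arm, hybridised 4 times. Rat 3 of each arm had 2 further arrays. Every pool is thus made of rats that also have their own array, and a result in pools is no independent repeat of the result in single rats.

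Glycolysis splits glucose into pyruvate in the cytosol and yields ATP and NADH. Phosphofructokinase sets its pace, and the fructose 2,6-bisphosphate that Pfkfb3 makes is an activator of that step. In the mammary gland of a rat that is not lactating, epithelial ducts lie in a fat pad, and in adipocytes the pathway supplies pyruvate for fatty acid synthesis and glycerol 3-phosphate for triglycerides. Gapdh is also in wide use as a reference transcript, and the manufacturer placed 3 probe sets for it along the transcript, at the 3′ end, in the middle and at the 5′ end, as a check on the RNA.

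Array medians lay between 7.40 and 7.47 log2. The later arrays of the pools of 12 carry a source label that reads individual, against their titles, which were followed. After the mean over single rats was subtracted, 5 of the 6 were closer to their pool's first array (r across probe sets 0.565 to 0.82) than to any rat of their arm. The exception was control pool of 12 repeat 3 (0.0803, against up to 0.511 with a rat), and differences and SDs that rest on it are given with and without it. Nothing in the labels says how the rats were housed or when glands were taken. The number of arrays limits the precision.

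Gapdh makes 1,3-bisphosphoglycerate and NADH. As the reference transcript of this set, it is shown with the 250 bases upstream of its RefSeq start (GRCr8, chr4:159652468-159652717, minus strand). Capitals mark ACGTG and GCGTG, on either strand, the cores of the site that hypoxia-inducible factors read, and CACGTG, an E-box that contains ACGTG.
Gapdh: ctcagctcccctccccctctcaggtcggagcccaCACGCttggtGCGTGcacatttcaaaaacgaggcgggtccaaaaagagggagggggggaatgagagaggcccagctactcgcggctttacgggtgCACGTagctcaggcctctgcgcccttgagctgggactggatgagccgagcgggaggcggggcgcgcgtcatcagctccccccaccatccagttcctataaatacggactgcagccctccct
In this window ACGTG occurred once and GCGTG at 2 places. At least 1 of these cores occurred in 36.7% of all 33469 promoter windows of this length, so a match describes the sequence and no more.

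In individual rats the middle GAPDH control probe set read 11.85 at the lowest, 12.20 at the median and 12.46 at the highest in treated rats. In control rats it read 11.38, 11.66 and 12.01. All 12 treated rats lay above the control mean and 9 lay above the highest control, and the arms overlapped through treated rats 8, 6 and 9 and control rats 2 and 8. The treated mean was 12.16 ± 0.19 (SD, n = 12) and the control mean 11.67 ± 0.20 (SD, n = 12), a difference of 0.50 ± 0.08 log2 (SE) or 1.41-fold (limma, adjusted p = 4.35e-05). More cells of a type and more RNA per cell cannot be told apart in such whole-gland values. The other Gapdh probe sets gave differences of 0.47 for the shared one, 0.41 at the 3′ end and 0.41 at the 5′ end, all higher in treated rats. The beta-actin control probe sets, the other abundant reference transcript, differed by -0.06 at the 3′ end, -0.06 in the middle and -0.13 at the 5′ end (limma with all control probe sets kept, adjusted p = 0.437 to 0.662).

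The 3 GAPDH control probe sets also show how far the labelled RNA reached. The 3′ value exceeded the 5′ value of the same array by 0.49 to 1.08 log2 in treated rats (mean 0.74 ± 0.16, SD over 12 rats) and by 0.49 to 0.89 in control rats (mean 0.74 ± 0.11, SD over 12 rats). The arms differed by 0.0025 (two-sided permutation test, p = 0.961, adjusted over 4 such measures 0.961). The same measure for beta-actin was 1.11 ± 0.16 in treated and 1.04 ± 0.08 in control rats (permutation p = 0.222, adjusted 0.296). The GAPDH 3′ value minus the middle one averaged -0.05 ± 0.16 in treated and 0.04 ± 0.09 in control rats, a difference of -0.09 (permutation p = 0.109, adjusted 0.219). For the hexokinase control the 3′ to 5′ difference was 0.94 ± 0.15 in treated and 1.04 ± 0.11 in control rats, a difference of -0.10 (permutation p = 0.0732, adjusted 0.219). Its 5′ probe set averaged only 4.96 in treated and 5.02 in control rats, where the 5th percentile of all values was 4.92. Its middle probe set (7.39 and 7.46) read above the 3′ one (5.89 and 6.06). The hexokinase difference is thus a poor measure of how far the labelled RNA reached. With the GAPDH 3′ minus 5′ difference as a covariate, 14 of the 16 probe sets were called higher in individual rats. Over all probe sets this fit called 2972 (limma). The covariate is itself built from GAPDH probe sets. Beyond this fit, the part of RNA quality in the rise of Gapdh was not tested.

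**Figure D1:**
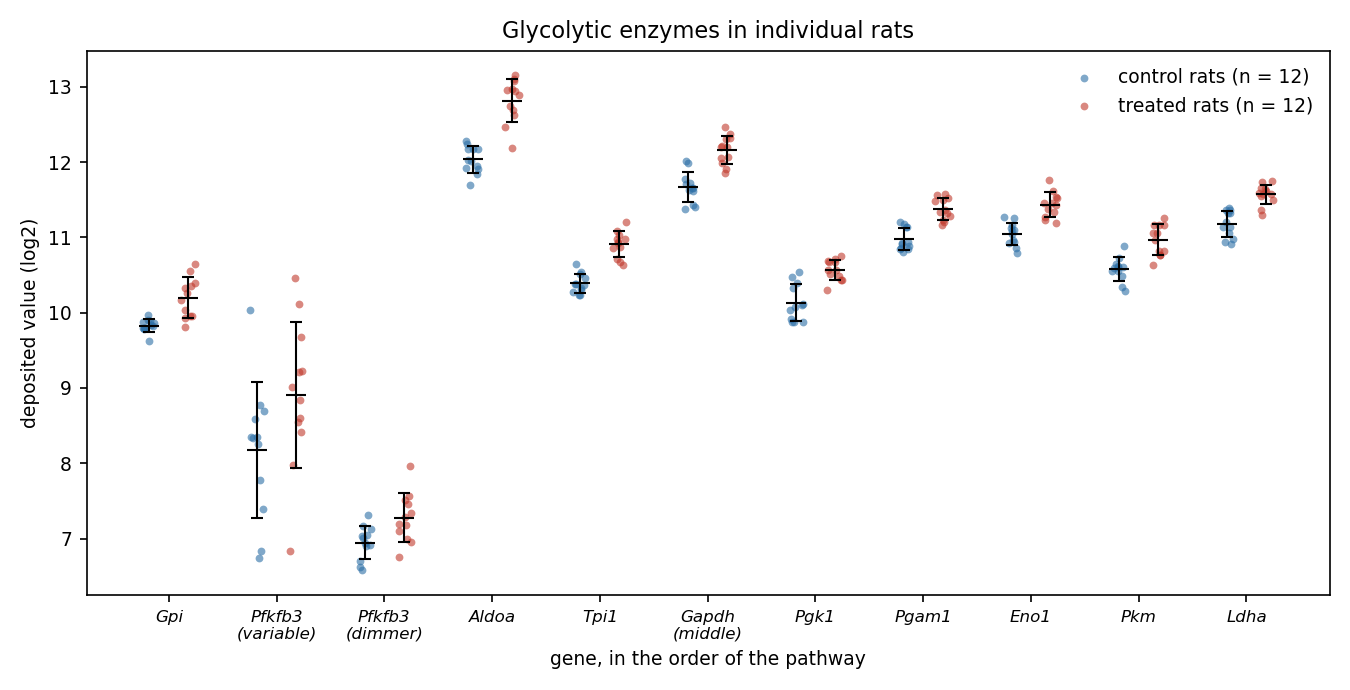
Deposited log2 values of 11 probe sets of the 10 genes in individual rats, a point per rat, with mean and SD (n = 12 per arm). Treated rats are higher on average for each gene, the arms overlap for each gene, and the variable Pfkfb3 probe set spreads from 6.74 to 10.5 while the other readings are tighter.

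The first steps prepare glucose 6-phosphate for cleavage. Gpi, which turns glucose 6-phosphate into fructose 6-phosphate, read 9.81, 10.21 and 10.65 (lowest, median and highest) in treated rats and 9.63, 9.82 and 9.97 in control rats. Of the treated rats 8 lay above every control. Gpi rose by 0.37 ± 0.08 log2 (SE; limma, adjusted p = 0.00103). Its spread was wider among treated rats (SD 0.27) than among controls (SD 0.08); this difference in spread was not tested.

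Pfkfb3, a kinase that makes an activator of phosphofructokinase, has 2 probe sets. Its upstream window is shown because 1 of them was the most variable reading among the 16 (GRCr8, chr17:71944683-71944932, plus strand, same marks).
Pfkfb3: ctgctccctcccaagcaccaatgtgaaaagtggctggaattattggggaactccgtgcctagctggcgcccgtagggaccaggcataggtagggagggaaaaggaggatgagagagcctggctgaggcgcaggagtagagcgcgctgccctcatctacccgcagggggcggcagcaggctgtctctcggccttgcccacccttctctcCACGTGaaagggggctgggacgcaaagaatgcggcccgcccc
The window holds 1 CACGTG, an E-box, found in 5.59% of all windows. The variable probe set read 6.84, 8.93 and 10.46 in treated rats and 6.74, 8.35 and 10.04 in control rats. Treated rat 9 and control rats 9 and 13 were at the bottom, treated rats 6 and 4 and control rat 14 at the top, and the arms overlapped over most of the range. The mean difference, 0.73 ± 0.36 log2 (SE), was not called (limma, adjusted p = 0.174), although without treated rat 9 it was 0.92 (adjusted p = 0.0499). The SD between rats was 0.94 log2, and 12 of the 15869 probe sets tested were more variable. Repeat arrays of the same target had an SD of 0.13 (0.14 without the control array that stands apart). Taken separately, this SD was 0.21 between arrays of rat 3 and 0.03 between arrays of the pools of 12. The other Pfkfb3 probe set read 6.75, 7.24 and 7.97 in treated rats and 6.58, 6.98 and 7.31 in control rats. It was called higher by 0.33 ± 0.11 log2 (SE; adjusted p = 0.0326), but with oestrous stage as a covariate it was not (0.31, adjusted p = 0.0601), nor when any of treated rats 2, 4, 12 or 14 or control rats 9, 13 or 15 was left out (adjusted p up to 0.0612). As deviations from the arm means the 2 Pfkfb3 probe sets correlated at r = 0.742 over the 24 rats.

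Aldoa, the aldolase that cleaves fructose 1,6-bisphosphate into 2 trioses, had the largest called difference among these genes. RefSeq gives it 3 start sites, and 1 of their 3 windows holds a searched motif, which is shown (GRCr8, chr1:190836778-190837027, minus strand, same marks).
Aldoa: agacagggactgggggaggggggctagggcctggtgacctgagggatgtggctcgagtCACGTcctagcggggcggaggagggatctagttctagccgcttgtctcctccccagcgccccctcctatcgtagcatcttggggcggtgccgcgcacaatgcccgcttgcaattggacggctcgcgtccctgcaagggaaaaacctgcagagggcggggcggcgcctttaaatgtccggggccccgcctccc
Treated rats read 12.19, 12.91 and 13.15, and control rats 11.70, 12.02 and 12.28. Treated rat 9, at 12.19, was the only treated rat below the highest control. Aldoa rose by 0.78 ± 0.09 log2 (SE), 1.72-fold (limma, adjusted p = 2.31e-06). Tpi1, which interconverts both trioses, read 10.63, 10.94 and 11.21 in treated rats and 10.24, 10.38 and 10.64 in control rats. Again treated rat 9 was the 1 treated rat that did not exceed all controls. Tpi1 rose by 0.52 ± 0.06 log2 (SE; adjusted p = 1.72e-06).

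The later steps lie between the trioses and lactate. Pgk1, which makes the first ATP of the payoff phase, has 3 probe sets. The brightest read 10.30, 10.57 and 10.75 in treated and 9.87, 10.09 and 10.54 in control rats and rose by 0.43 ± 0.08 log2 (SE; limma, adjusted p = 0.000204). The second gave 0.44 ± 0.09, and their deviations correlated at r = 0.898 over the 24 rats. The third stayed between 4.26 and 4.47 in all 24 rats, where the lowest value of any array was 4.12, and its difference of 0.05 was not called (adjusted p = 0.153). Pgam1, the phosphoglycerate mutase, read 11.16, 11.35 and 11.57 in treated and 10.81, 10.92 and 11.20 in control rats, and 11 of 12 treated rats exceeded every control. It rose by 0.40 ± 0.06 log2 (SE; adjusted p = 1.82e-05). Eno1, the enolase that forms phosphoenolpyruvate, read 11.19, 11.45 and 11.76 against 10.79, 11.07 and 11.27 and rose by 0.39 ± 0.06 log2 (SE; adjusted p = 7.2e-05). The Pkm probe set, for pyruvate kinase, read 10.63, 11.02 and 11.26 against 10.29, 10.60 and 10.89, a difference of 0.40 ± 0.07 log2 (SE; adjusted p = 0.000271).

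Ldha, which reduces pyruvate to lactate and so restores NAD+, is shown because its window held the most motifs among the 12 windows of the 9 genes with an entry (GRCr8, chr1:106507842-106508091, plus strand, same marks).
Ldha: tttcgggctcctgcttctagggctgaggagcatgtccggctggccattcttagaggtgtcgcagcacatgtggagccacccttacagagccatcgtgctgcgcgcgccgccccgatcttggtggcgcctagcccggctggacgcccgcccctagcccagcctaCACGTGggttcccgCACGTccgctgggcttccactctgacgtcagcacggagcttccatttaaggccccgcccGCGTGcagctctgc
The window holds 1 CACGTG and further copies of the cores, with ACGTG at 3 places in all on either strand, 2 of them within the E-box, and GCGTG once. Of the 9 genes, 2 (Ldha and Pfkfb3) held CACGTG and 6 held ACGTG or GCGTG in at least 1 window. By window, the unit of the shares over all promoters, these were 2 and 7 of 12. The 12 windows were 54.4% to 69.2% G and C, against a median of 51.2% over all windows. Ldha read 11.30, 11.59 and 11.75 in treated rats and 10.91, 11.17 and 11.39 in control rats. Treated rats 8 and 9 were the 2 that did not exceed every control. Ldha rose by 0.39 ± 0.06 log2 (SE; limma, adjusted p = 5.25e-05).

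In individual rats 14 of the 16 probe sets were called higher in treated rats and 0 lower, while 8.48% of all 15869 probe sets tested were called higher and 18.1% in either direction. At an unadjusted p under 0.05 (limma), 15 of the 16 were past the threshold, as were 4621 of all 15869 probe sets. The median difference over 9 genes, each by its brightest probe set with 1 symbol, was 0.43 log2, against a median of -0.0025 over all probe sets. In none of the 16 did every treated rat exceed every control, which held for 0.384% of all probe sets. Markers of cell types moved too. Of 4 adipocyte markers, 3 were called higher (Lep, Lipe and Fabp4), and their mean level ran from 9.65 to 10.47 in treated and from 9.22 to 10.13 in control rats. All 6 luminal epithelial markers were called lower, with mean levels of 9.98 to 10.43 against 10.34 to 10.81. Of 3 basal epithelial markers, 1 was called, and it was higher: Oxtr, the oxytocin receptor, by 0.90 log2 (limma, adjusted p = 3.53e-05). Krt5 (-0.39) and Krt14 (-0.33), the keratins of basal cells, were not called, and the mean level of the 3 was 9.02 to 10.13 in treated and 8.99 to 9.88 in control rats. Skeletal muscle, itself rich in these enzymes, had 0 of 7 markers called, and their mean level was 6.39 to 6.60 against 6.33 to 6.69. These markers differed in level: Ckm (6.30 to 6.67), Acta1 (5.17 to 6.99) and Mb (5.08 to 5.43) stayed in these ranges over all 24 rats. In contrast, 4 of the 5 probe sets of Myh1, a muscle gene as well, read 9.64 to 11.5. No erythroid (3 measured) or lymphocyte marker (4 measured) was called. The part of adipocyte and luminal marker levels in the rise of the glycolytic enzymes was not tested.

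**Figure D2:**
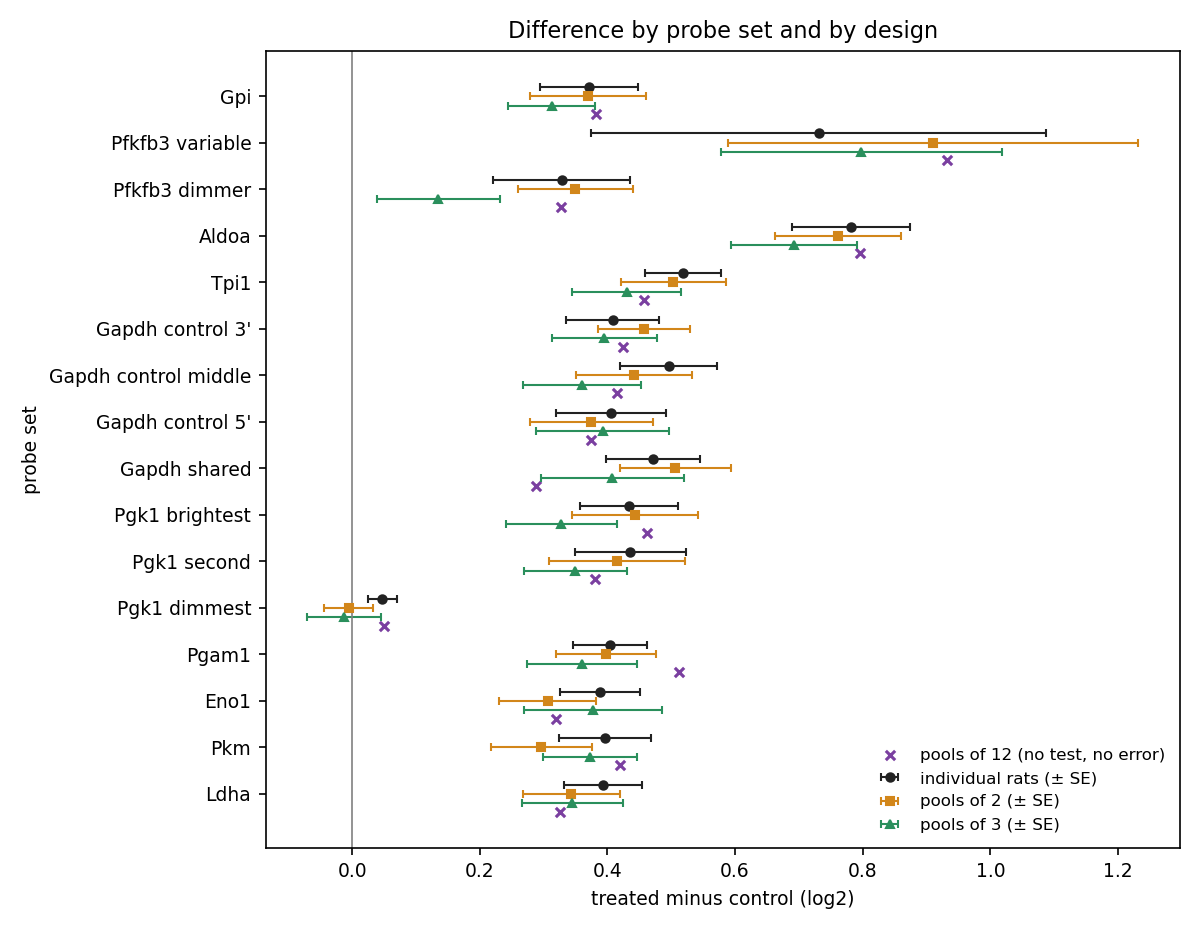
Treated minus control difference (log2) of the 16 probe sets in individual rats, pools of 2 and pools of 3 (bars, SE) and in the pools of 12 (crosses, which have no test). The differences of 15 probe sets lie above 0 in each design, and the third Pgk1 probe set lies near 0.

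The mean of the 9 genes was taken over the 24 rats as deviations from the arm means. It followed the tricarboxylic acid cycle list at r = 0.783 and the adipocyte list at r = 0.575. This mean includes the variable Pfkfb3 probe set, with an SD between rats of 0.94. The other 8 genes had SDs of 0.14 (Pgam1) to 0.24 (Aldoa). Pfkfb3 thus weighs heavily in the mean, and r without it was not computed. The adipocyte value was 0.89 among treated and 0.0539 among control rats. Other lists also had a higher r among treated rats: tricarboxylic acid cycle 0.894 against 0.516, pyruvate entry 0.89 against 0.392, glucose entry 0.727 against 0.0372. The erythroid (0.0657 against 0.263) and lymphocyte lists (-0.0035 against 0.0344) did not. For the skeletal muscle list r was 0.182 among treated and -0.67 among control rats. With the luminal list r was -0.411. These values are descriptions over points that share arrays and normalization. Among pairs of the 8 genes other than Pfkfb3 and Pkm, r ran from 0.206 to 0.863 (median 0.497, 28 pairs), and among the 8 pairs with Pfkfb3 from -0.254 to 0.431. Relative to the middle Gapdh probe set, Ldha (r = 0.863, rank 7 of 10411 genes) and Eno1 (0.831, rank 22) were the closest of the pathway. The unranked Pkm probe set with its 2 symbols (0.797) and Pgk1 (0.742, rank 70) followed. Next came Tpi1 (0.586, rank 334), Pgam1 (0.485, rank 672), Gpi (0.391, rank 1146) and Aldoa (0.367, rank 1294). Pfkfb3 (-0.0271, rank 5554) was far from Gapdh. For Aldoa r was 0.651 among treated and -0.025 among control rats, and for Gpi 0.639 and -0.118. The 5 genes nearest to Gapdh, chosen for their r, were Ndufc2, a complex I subunit (r = 0.892, Spearman rho = 0.904), Mrpl42, a mitochondrial ribosomal protein (0.883 and 0.882), Adk, adenosine kinase (0.883 and 0.906), Cox7c, a cytochrome c oxidase subunit (0.87 and 0.886), and Mrpl27, of the mitochondrial ribosome (0.869 and 0.886). Leaving out the 2 rats farthest from the median of Gapdh kept all 5 between 0.819 and 0.873.

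The spread between rats exceeded that between repeat arrays for all 16 probe sets, by ratios of the SDs from 1.21 (Pgam1) to 8.04 (Aldoa), against a median of 1.19 over all probe sets. Without the control array that stands apart the ratios ran from 1.33 (the third Pgk1 probe set) to 8.02 (Aldoa), with Pgam1 at 1.59 and a median of 1.29 over all probe sets. For Aldoa the SD was 0.24 between rats and 0.03 between repeat arrays of rat 3 and of the pools of 12, with or without that array. For the middle Gapdh probe set these were 0.19 and 0.04 (0.05 without it).

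The stage of the oestrous cycle was compared with treatment as a covariate. Rats outside diestrus differed from rats in diestrus by 0.12 ± 0.08 log2 (SE) in Gapdh, 0.13 ± 0.10 in Aldoa, 0.05 ± 0.07 in Ldha and -0.17 ± 0.39 in the variable Pfkfb3 probe set. None of the 16 was called, as was none of all probe sets tested (0.00% by limma, with 581 at an unadjusted p under 0.05 and none of these a member). In diestrus alone, Gapdh averaged 12.08 ± 0.19 (SD, n = 6) with treatment and 11.65 ± 0.18 (SD, n = 9) without, and 13 of the 16 probe sets were called higher (4.32% of all probe sets), and 9 after quantile normalization. Tpi1 and Pgam1 were the 2 of 16 in which all 6 treated rats exceeded all 9 controls (0.762% of all). Outside diestrus, with 3 controls, Gapdh averaged 12.24 ± 0.16 (SD, n = 6) against 11.71 ± 0.30 (SD, n = 3), and 3 of the 16 were called higher, Aldoa, Tpi1 and Ldha (1.20% of all). A contrast taken from a fit over all 24 rats called 8 outside diestrus (306 of all probe sets) and 12 in diestrus (1590 of all). In 8 of the 16 the arms did not overlap outside diestrus (3.59% of all). The difference of the treatment effect between stages was 0.10 ± 0.16 log2 (SE) for Gapdh and 0.07 ± 0.20 for Aldoa, and no probe set was called in this test (322 at an unadjusted p under 0.05, none of them a member; limma).

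In pools of 2 the middle Gapdh probe set read 12.02, 12.21 and 12.38 (lowest, median, highest of 6) in treated and 11.49, 11.74 and 11.97 in control pools, with no overlap. Aldoa read 12.47, 12.91 and 13.13 against 12.00, 12.09 and 12.31, again with no overlap. Of the 16 probe sets 14 were called higher (5.17% of all), Gapdh by 0.44 ± 0.09 log2 (SE; limma, adjusted p = 0.00718) and Aldoa by 0.76 ± 0.10 (adjusted p = 0.000383). In 6 of the 16 every treated pool exceeded every control pool (2.90% of all). Without the control pool of rats 10 and 11, 8 were called. In pools of 3 the treated pools read 11.91, 12.13, 12.25 and 12.38 for Gapdh and the control pools 11.73, 11.81, 11.83 and 11.86, so that the arms did not overlap. Here 11 of the 16 were called higher (3.30% of all). This count fell to 3 without both pools that hold rat 3, and leaving out single pools gave 3 to 12. It was 3 without the treated pool of rats 7, 12 and 14, and 5 without the treated or the control pool of rats 2, 3 and 5 or the control pool of rats 10, 11 and 13. In 13 of the 16 the arms did not overlap in pools of 3 (4.73% of all). Aldoa rose by 0.69 ± 0.10 log2 (SE; adjusted p = 0.00225).

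The 4 arrays of a pool of 12 repeat the hybridisation of 1 mixture, and a treated to control difference from them carries no test. Gapdh read 12.11, 12.19, 12.20 and 12.21 in the treated and 11.74, 11.76, 11.77 and 11.78 in the control pool. Aldoa read 12.83, 12.87, 12.91 and 12.91 against 12.06, 12.06, 12.10 and 12.12. The difference of the means was 0.415 for Gapdh (0.4075 without the control array that stands apart) and 0.795 for Aldoa (0.7867 without it). All 16 probe sets were higher on average in the treated pool, with a median difference of 0.40 log2 (0.37 without the control array that stands apart) against -0.02 over all probe sets.

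**Figure D3:**
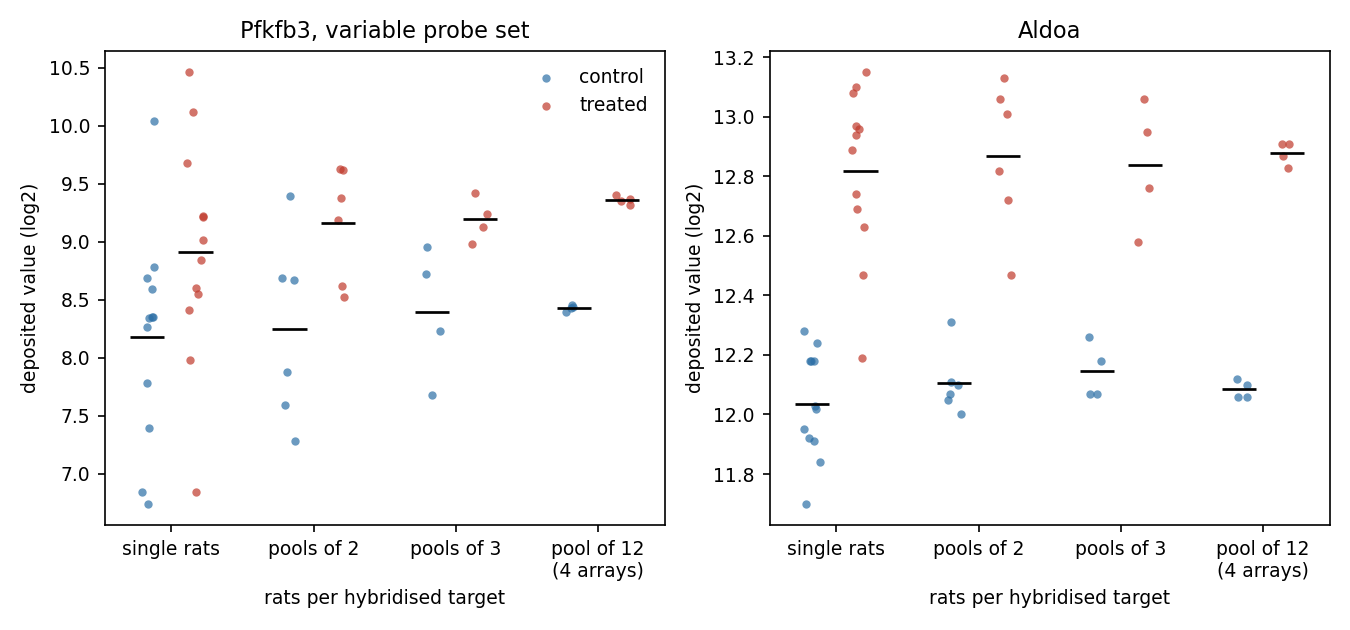
Deposited log2 values of the variable Pfkfb3 probe set and of Aldoa on arrays of single rats, pools of 2, pools of 3 and the pool of 12 of each arm (lines, means). The Pfkfb3 arms overlap in single rats and pools of 2 and separate in pools of 3, and the Aldoa arms separate in all pools.

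Pools spread less than single rats in the variable Pfkfb3 probe set. Its SD was 0.97 in treated rats, 0.49 in treated pools of 2 and 0.19 in treated pools of 3, and 0.90, 0.80 and 0.56 in the control arm. These SDs were not tested against each other. The pools of 3 read 8.98, 9.13, 9.24 and 9.42 in the treated and 7.68, 8.23, 8.72 and 8.95 in the control arm, which did not overlap, but the difference of 0.80 ± 0.22 log2 (SE) was not called (limma, adjusted p = 0.0546). The pool of 12 read 9.36 in the treated and 8.43 in the control arm as means of 4 arrays, a difference of 0.93 (0.94 without the control array that stands apart). The mean of the single rats was 8.91 and 8.18 as log2 values, and 9.18 and 8.45 when averaged as linear values, which is what mixed targets carry. Each pool of 2 or 3 was also set against the linear mean of its rats. Over the 20 pools the median deviation of the probe sets lay between -0.01 and 0.09 log2, and single pools deviated by -0.37 to 0.31.

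**Figure D4:**
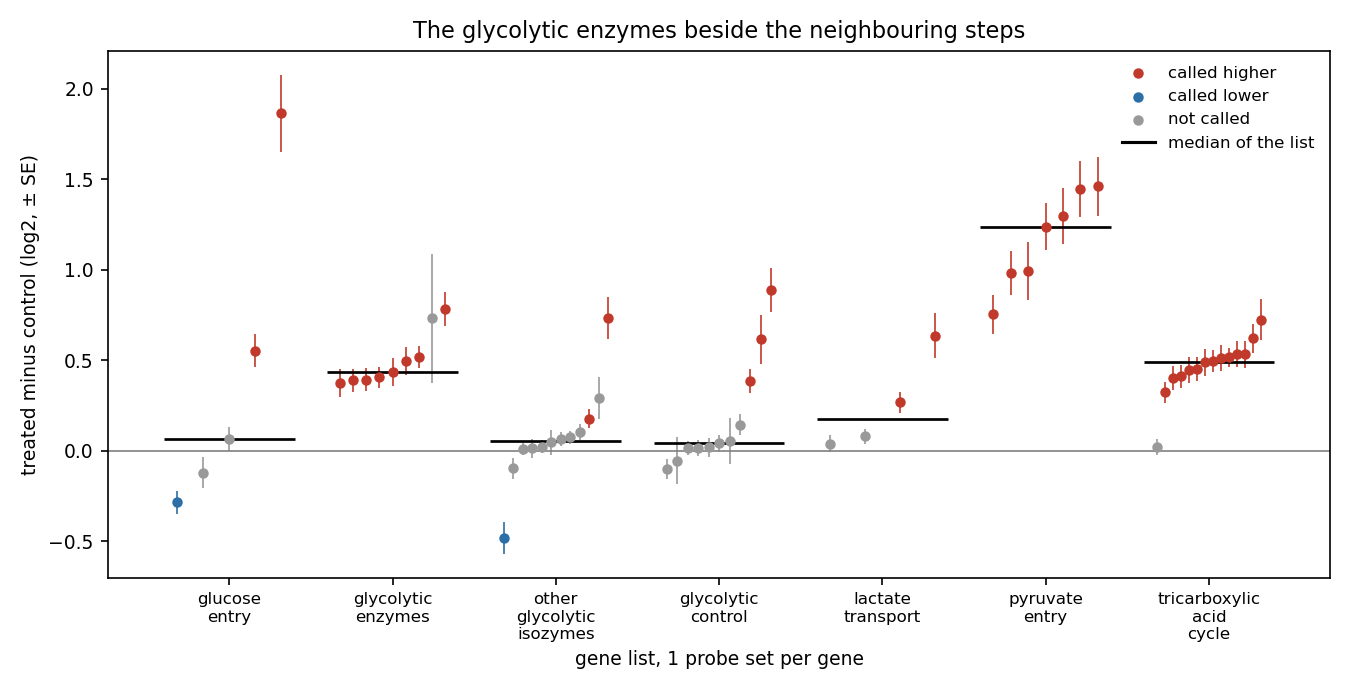
Treated minus control difference (log2, bars, SE) of each gene of 7 lists in individual rats, by its brightest probe set, with the list median as a line. The glycolytic enzymes centre on 0.43, their other isozymes on 0.06, and the pyruvate entry genes on 1.24.

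Other isozymes of the same enzymes were read beside these genes. Of 12 measured, 2 were called higher and 1 lower, with a median of 0.06 log2. Over all probe sets tested, 8.48% were called higher and 18.1% in either direction. Ldhb, the lactate dehydrogenase subunit of oxidative tissues, rose by 0.73 ± 0.11 log2 (SE; limma, adjusted p = 4.96e-05), and Bpgm, which makes 2,3-bisphosphoglycerate, by 0.18. Aldoc, the aldolase known from brain, fell by 0.48 log2, from 9.44 ± 0.24 (SD, n = 12) in controls to 8.95 ± 0.21 (SD, n = 12) with treatment (adjusted p = 0.000271), where Aldoa rose. The muscle isozymes Pgam2 (0.06) and Eno3 (0.01) were not called, nor were the phosphofructokinase subunits Pfkl (0.29, adjusted p = 0.087), Pfkm (0.10) and Pfkp (-0.10). Among 11 genes that control the pathway, 3 were called higher and 0 lower. Mlxipl, the carbohydrate-responsive transcription factor also known as ChREBP, rose by 0.89 ± 0.12 log2 (SE; adjusted p = 1.42e-05), Pfkfb1 by 0.61 and Pfkfb4 by 0.39. Hif1a differed by -0.10 and Myc by 0.05, and neither was called.

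Upstream and downstream steps were read in the same way, beside the same shares over all probe sets (8.48% called higher, 18.1% in either direction). Of 5 genes of glucose entry, 2 were called higher and 1 lower. Slc2a4, the insulin-responsive glucose transporter, read 8.60, 10.22 and 10.52 in treated and 7.42, 8.06 and 8.88 in control rats. Hexokinase genes moved apart, with Hk2 higher by 0.55 ± 0.09 log2 (SE; limma, adjusted p = 0.000102) and Hk1 lower, at -0.29 ± 0.06 (adjusted p = 0.00211). Of 4 genes of lactate transport, 2 were called higher, Slc16a1 (0.64) and Slc16a7 (0.27). The genes that carry pyruvate into the mitochondrion and start its oxidation or carboxylation were called higher in 7 of 7 cases, with a median of 1.24 log2, from Dld (0.75) to Mpc1, a subunit of the mitochondrial pyruvate carrier (1.46). In the tricarboxylic acid cycle 13 of 14 genes were called higher, with a median of 0.49 log2, and the other, Suclg2, differed by 0.02. Beside each of these lists stands the same shift of adipocyte and luminal markers given above.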

How the data were processed

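The deposited table gives 1 value per probe set and array, which the authors made from a rat expression array. Its log2 unit is inferred from the deposited values, which run from 4.12 to 14.1. Software, background correction and normalization are not stated in these sources. Per the labels' descriptions, 5 µg of each rat's RNA was made into labelled cRNA and pools were mixed from labelled targets to 10 µg. Groups and stages came from the labels.

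Left out were 54 control probe sets, leaving 15869 with the 3 for GAPDH. Of the others, 12783 had 1 symbol, 312 several and 2771 none, and 12748 matched RefSeq genes by Entrez ID. Promoter windows are RefSeq's, of GRCr8. Pgk1 had no entry. They start at annotated starts, and the 50 bases after the start were not used.

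Treatment, stage and their interaction were tested with limma's lmFit and eBayes, with Benjamini-Hochberg adjustment over all 15869 probe sets and a threshold of 0.05. The transcript-end differences had a permutation test of 100000 resamples. One array per rat was used. The p-values weigh a difference against the spread between these samples, which in pools is a spread between mixtures of the same rats. Nothing says that rats came from separate litters or cages. Code was tested on simulated data. The genes, lists and tests were chosen with earlier results of these data known. All member probe sets were named, and the 5 genes with the highest r with Gapdh. Of each other list, up to 4 genes of smallest p were named, and a few uncalled ones, chosen after their values were seen. Of the pyruvate entry genes, those with the lowest and highest difference, Dld and Mpc1, were named instead. Alternatives covered array weights, the prior, normalization and a filter on dim probe sets. They also covered stage, the GAPDH 3′ minus 5′ difference, the rat number, a rank-sum test and left-out arrays. Rat numbers shared by both arms were not taken to pair rats. The tools were limma 3.58.1 in R 4.3.3, and scipy 1.17.1 with numpy 2.4.6 in Python 3.11.15.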

Additional observations from a re-analysis of the deposited data

Results flagged for a closer look

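In 99 combinations of a reading and a group of 4 to 9 arrays, 3 had an end value far from its neighbour by Dixon's test, where chance flags about 1 in 20. Control rat 2 had the lowest Gpi of the 9 control rats in diestrus, 9.63 against 9.80 for the next. Control rat 14 had the lowest reading of the Pkm probe set in the same group, 10.34 against 10.55. The control pool of rats 13 and 15 had the highest Aldoa of the 6 control pools of 2, 12.31 against 12.11, still below the lowest treated pool at 12.47.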

How the results depend on the processing

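In individual rats 13 to 15 member probe sets were called higher under every alternative run and every left-out rat. All 16 were tested except under the filter on dim probe sets. That filter left out the less variable Pfkfb3 and the third Pgk1 probe set, and 13 were called. The exact rank-sum test called 15, the added one being the third Pgk1 probe set (0.05 log2, adjusted p = 0.0471). With rat number as a replicate block, over the 10 numbers found in both arms, 13 were called, as without the block over the same rats (13). Deviations of same-numbered rats correlated at -0.388 to 0.358, and 1 treated rat matched its own number best. Over all probe sets, 1736 instead of 2870 were called at an adjusted p under 0.01. Array weights gave 2413 instead of 1388 calls in diestrus and 1564 instead of 997 in pools of 3. A fit over all 24 rats called 8 member probe sets outside diestrus instead of 3 and 12 in diestrus instead of 13 (without Gpi). Over all probe sets it called 306 outside diestrus instead of 235 and 1590 in diestrus instead of 1388. In diestrus quantile normalization gave 9, without Ldha, Pkm, 1 Pgk1 and the 5′ GAPDH probe set, median centring 11 and array weights 14. Leaving out single pools gave 8 to 14 member calls (959 to 1563 over all probe sets) in pools of 2 and 3 to 12 (503 to 1023) in pools of 3. Without both pools that hold rat 3, pools of 3 gave 3 and 461. Leaving out single rats gave 2526 to 3136 calls over all probe sets. Signs turned for values not called in the same comparison. The third Pgk1 probe set gave -0.0125 in pools of 3, 0.0225 with arrays centred on their medians and 0.01 without the pools of rat 3. With single pools left out it ran from -0.0173 to 0.00867 in pools of 2 and from -0.0317 to 0.0025 in pools of 3. Without a treatment term the stage difference was 0.0873 for Pgam1 and 0.0371 for the variable Pfkfb3 probe set. The GAPDH 3′ value minus the middle one differed between arms by -0.0875, where the 3′ minus 5′ difference was 0.0025 (permutation p = 0.109 and 0.961). The causes were not tested.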

Other observations

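The genes whose values followed the variable Pfkfb3 probe set over the 24 rats were looked up after its spread was seen. As deviations from the arm means, the 5 with the highest r were Plpp1, a lipid phosphatase (r = 0.837, Spearman rho = 0.744), Osbpl11, an oxysterol-binding protein family member (0.825 and 0.749), Eci2, an enoyl-CoA isomerase of fatty acid oxidation (0.803 and 0.777), Txnip, which restrains glucose uptake and binds thioredoxin (0.792 and 0.751), and Fam107a (0.791 and 0.781). Each held within the arms, from 0.815 to 0.858 among treated and 0.764 to 0.817 among control rats. None was among the genes nearest to Gapdh. Without the 2 rats farthest from the Pfkfb3 median, r was 0.704 to 0.778. The treated minus control difference was -0.46 log2 for Txnip, -0.18 for Plpp1, -0.02 for Osbpl11, -0.01 for Eci2 and 0.02 for Fam107a. Tests of these 5 differences are not given here. For this Pfkfb3 probe set the difference was 0.73 and was not called (limma, adjusted p = 0.174). These r were chosen as the highest among 10411 genes and are a description of these rats.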
